A study of Mus musculus with 10 samples.

Results

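This report describes 8 genes of the BCL2 family in light-exposed mouse retina: the anti-apoptotic genes *Mcl1*, *Bcl2l1* and *Bcl2*, the pore-forming effectors *Bax* and *Bak1*, and the BH3-only genes *Bbc3*, *Pmaip1* and *Bcl2l11*. They were chosen by gene symbol from the 54532 genes of the deposited expression table. Each symbol was found, and all 8 genes passed the filter on low values of 0.1 FPKM in at least 5 retinas. FPKM are fragments per kilobase of gene scaled to library size, so levels can be set side by side between genes.

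Proteins of this family decide at the outer membrane of the mitochondrion whether a stressed cell releases cytochrome c. BAX and BAK1 form the pores, MCL1, BCL-xL (encoded by *Bcl2l1*) and BCL2 hold them in check, and BH3-only proteins such as PUMA (*Bbc3*), NOXA (*Pmaip1*) and BIM (*Bcl2l11*) bind and block the anti-apoptotic proteins or act on the effectors. Released cytochrome c binds APAF1, which activates the caspases, the proteases that dismantle the cell. In the retina the pathway has been studied in developmental cell death and in models of photoreceptor degeneration.

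RNA was measured by RNA-seq in 10 neural retinas of BALB/c mice, an albino inbred strain. All mice were 2-month-old and, per the labels, all were kept in the dark for 12 h first. Of the samples, 5 came from mice then kept under normal light of 200 lux (NL) and 5 from mice under 15000 lux (LD), in both cases for 1 day. Retinas are named by group and label number, from NL-1 to NL-8 and from LD-1 to LD-8. The labels do not say whether any 2 samples share a mouse, so p-values measure the spread between these samples.

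Depth, as reads recovered from the FPKM and summed over genes, was 21343389 to 26832535 in NL and 18965090 to 23378090 in LD retinas. The retinas NL-5 and NL-7, LD-1 and LD-7, and LD-4 and LD-6 were closer to each other than the remaining 17 pairs of the same group, with a chi-square per gene of 2.52 to 3.41 against 10.9 to 38.5, and for named genes whose call ends when these pairs are averaged, that value is given. *Xist* was present in 2 retinas of each group. Rod markers were lower in LD for 5 of 5 genes, and their summed level was 7331 to 8988 FPKM in NL and 1001 to 2164 FPKM in LD. Cone markers were lower for 3 of 3 genes. In whole retina, RNA levels alone cannot tell fewer cells of a type from less RNA per cell, which holds for every value that follows. In its histology of BALB/c retinas, the paper saw no obvious degeneration at this light level and duration. It reports significant degeneration after a longer exposure. Cell numbers in the sequenced retinas were not tested.

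Of the 8 genes, 5 rose in LD: *Bbc3*, *Mcl1*, *Bak1*, *Bax* and *Bcl2l1*. They passed an adjusted p under 0.05 in limma on log2(FPKM + 0.1), with Benjamini-Hochberg adjustment over 24508 genes, a rule by which 14.5 percent of all genes tested were higher. At an adjusted p under 0.01 there were 4 (not *Bcl2l1*), where 9.30 percent of all genes were higher. The same 5 genes had no overlap between the groups, with LD above NL, as did 11.8 percent of all genes, and 22.4 percent did not overlap in either direction. The remaining *Pmaip1*, *Bcl2* and *Bcl2l11* did not pass. None was lower by limma at an adjusted p under 0.05 (0 genes, where 13.4 percent of all genes were lower), and the count was also 0 at an unadjusted p under 0.05 and by limma-voom on the recovered reads. With the stricter rule of an adjusted p under 0.01 and more than 2-fold, 1 gene, *Bbc3*, was called, where 6.51 percent of all genes were called, 4.13 percent as higher and 2.37 percent as lower. The median log2 difference, LD minus NL, was 0.39 for the 8 genes and -0.01 for all genes tested.

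The promoters of the gene with the largest rise (*Bbc3*), of the most abundant anti-apoptotic gene and effector among the 8 (*Mcl1*, *Bax*) and of the gene that varied most within groups (*Bcl2*) are printed to show what sequence precedes them. RefSeq windows on GRCm38.p6 were matched for 7 of the 8 genes, with 12 windows in all, and the window nearest to the gene start of the deposited table was taken. Each line is the 250 bases before the RefSeq start, 5′ to 3′ on the gene's strand, and no base of these 4 windows is exonic in GENCODE. Capitals mark matches, on either strand, of the CRE core TGACG, the AP-1 motif TGAGTCA, the E-box CACGTG, the GC box GGGCGG and the p53 decamer, a motif of 10 bases.
*Bbc3*, chr7:16309333-16309582, plus strand: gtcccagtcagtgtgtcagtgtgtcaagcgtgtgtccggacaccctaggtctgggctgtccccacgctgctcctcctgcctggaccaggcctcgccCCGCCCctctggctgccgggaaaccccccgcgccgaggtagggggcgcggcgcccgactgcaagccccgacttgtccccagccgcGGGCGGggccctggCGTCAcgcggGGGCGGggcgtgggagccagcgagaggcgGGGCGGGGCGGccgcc
*Mcl1*, chr3:95658471-95658720, plus strand: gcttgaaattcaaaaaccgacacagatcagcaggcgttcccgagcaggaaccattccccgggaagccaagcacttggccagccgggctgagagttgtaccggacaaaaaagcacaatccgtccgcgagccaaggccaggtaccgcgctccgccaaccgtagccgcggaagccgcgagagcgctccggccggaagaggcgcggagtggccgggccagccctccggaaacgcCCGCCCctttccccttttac
*Bax*, chr7:45466899-45467148, minus strand: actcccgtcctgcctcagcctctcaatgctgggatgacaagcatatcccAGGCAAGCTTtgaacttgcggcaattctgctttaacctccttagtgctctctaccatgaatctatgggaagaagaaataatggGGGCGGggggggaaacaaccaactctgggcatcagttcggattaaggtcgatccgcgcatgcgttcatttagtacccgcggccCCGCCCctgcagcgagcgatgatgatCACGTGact
*Bcl2*, chr1:106714291-106714540, minus strand: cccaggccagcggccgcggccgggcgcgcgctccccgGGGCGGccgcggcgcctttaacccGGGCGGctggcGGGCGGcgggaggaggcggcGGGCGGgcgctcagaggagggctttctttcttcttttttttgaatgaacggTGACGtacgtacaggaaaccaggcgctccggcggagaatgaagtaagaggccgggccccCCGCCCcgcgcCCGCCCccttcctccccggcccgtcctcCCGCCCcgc

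The *Bbc3* window held 1 CRE core and 5 GC boxes, 2 of which share 1 base, and starts inside the gene as the table gives it, 1190 bases from its first base to the RefSeq start. The *Bcl2* window held 1 CRE core and 7 GC boxes. The *Mcl1* window held 1 GC box, and the *Bax* window held 1 E-box, 2 GC boxes and 1 p53 decamer. Among 32851 promoters of the same length, 17.8 percent held the CRE core, 32.7 percent the GC box, 6.02 percent the E-box, 7.13 percent the p53 decamer and 4.46 percent the AP-1 motif, which none of the 4 windows held. The nearest *Bcl2l11* window, not printed, held 3 GC boxes and no other of these motifs. The nearest windows of *Bcl2l1* and *Bak1*, also not printed, held none of these motifs. A match is a description of letters and not a site of binding.

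*Bbc3* (ENSMUSG00000002083, chr7:16308393-16318205, plus strand, GRCm38) encodes PUMA, a BH3-only protein that binds all anti-apoptotic members and is known as a target of p53. Its level was 2.53, 2.46, 2.57, 2.17 and 2.30 FPKM in NL-1, NL-4, NL-5, NL-7 and NL-8. In LD-1, LD-4, LD-6, LD-7 and LD-8 it was 5.10, 6.48, 5.77, 5.81 and 7.45 FPKM. The groups did not overlap, and LD-8 was highest. The mean rose from 2.41 ± 0.168 to 6.12 ± 0.888 FPKM (SD, n = 5 per group; exact permutation test, two-sided p = 0.00794, the smallest that 5 against 5 allows). The log2 difference was 1.30 (SE 0.10, limma adjusted p = 6.91e-06), a 2.46-fold rise with a 95% interval of 2.11 to 2.87. Between 98 and 126 reads stood behind each NL value, and between 264 and 352 behind each LD value.

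The other BH3-only members did not pass the test. *Pmaip1* (chr18:66458604-66465550), which encodes NOXA, a partner of MCL1, was the lowest of the 8 genes, with 16 to 42 reads per retina. It was 0.283, 0.302, 0.577, 0.445 and 0.234 FPKM in the NL retinas in order of number and 0.604, 0.783, 0.524, 0.498 and 0.374 FPKM in the LD retinas. The groups overlapped, since NL-5 and NL-7 were above LD-8. LD minus NL was 0.51 on the log2 scale, with an interval of -0.03 to 1.04 (limma adjusted p = 0.154), which at this depth holds both no change and a 2-fold rise.

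*Bcl2l11* (chr2:128126038-128162547), which encodes BIM, a BH3-only protein that binds all anti-apoptotic members, was 2.33 to 2.96 FPKM in NL and 2.36 to 3.20 FPKM in LD. The means were 2.74 ± 0.271 and 2.77 ± 0.388 FPKM (SD, n = 5 per group; exact permutation p = 0.952). LD minus NL was 0.01 on the log2 scale, with an interval of -0.24 to 0.25 (limma adjusted p = 0.969), and 384 to 618 reads per retina stood behind it. LD-1 and LD-7, 1 of the close pairs, were highest within LD, and LD-4 and LD-6, another, were lowest.

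**Figure D1:**
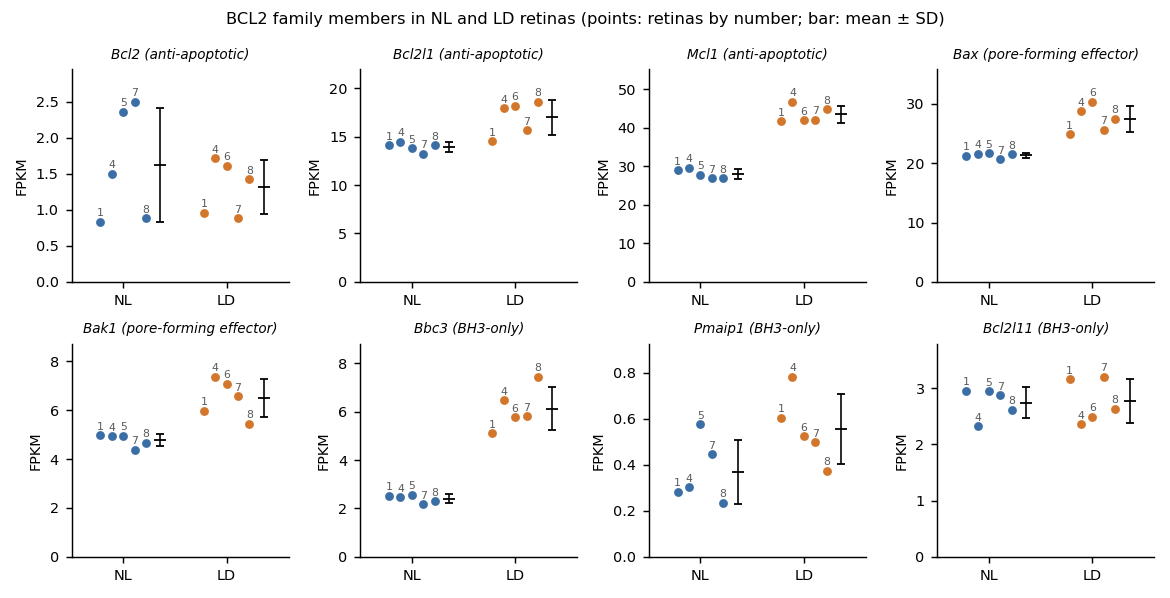
Level of the 8 genes in FPKM (vertical axes, from 0) in each NL and LD retina, with the retina's number above its point and the mean ± SD beside each group. *Bbc3*, *Mcl1*, *Bax*, *Bak1* and *Bcl2l1* show no overlap between the groups, while *Bcl2*, *Pmaip1* and *Bcl2l11* do.

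Of the anti-apoptotic genes, *Mcl1* (ENSMUSG00000038612, chr3:95658788-95663176) was the most abundant of all 8 genes in both groups and above 92.8 percent of all tested genes in NL. It encodes a short-lived protein that holds BAK1 in check. Its level was 28.9, 29.7, 27.8, 27.0 and 26.8 FPKM in the NL retinas and 41.7, 46.8, 42.0, 42.1 and 44.8 FPKM in the LD retinas. All LD retinas were well above the NL retinas. The mean rose from 28.0 ± 1.23 to 43.5 ± 2.23 FPKM (SD, n = 5 per group; exact permutation p = 0.00794), a log2 difference of 0.63 (SE 0.05, limma adjusted p = 5.55e-06) or 1.55-fold.

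*Bcl2l1* (ENSMUSG00000007659, chr2:152780668-152831728) encodes BCL-xL, the anti-apoptotic protein of many adult neurons. It was 14.1, 14.5, 13.8, 13.2 and 14.1 FPKM in NL and 14.6, 18.0, 18.2, 15.7 and 18.6 FPKM in LD. The groups did not overlap, but LD-1 was next to NL-4. The log2 difference was 0.28 (SE 0.07, limma adjusted p = 0.0128), the smallest of the 5 rises. Over the 8 retinas whose numbers occur in both groups it was 0.25 (limma adjusted p = 0.0694), and with the close pairs averaged it was 0.29 (limma adjusted p = 0.0420).

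*Bcl2* (ENSMUSG00000057329, chr1:106538178-106714274), the founding member of the family, varied more within the groups than any other of the 8 genes in NL. It was 0.832, 1.5, 2.36, 2.50 and 0.885 FPKM in the NL retinas and 0.958, 1.71, 1.61, 0.887 and 1.42 FPKM in the LD retinas. In NL, NL-5 and NL-7 were high and NL-1 and NL-8 low. In LD, LD-1 and LD-7 were low. The coefficient of variation was 48.9 percent in NL and 28.6 percent in LD, against 4.38 and 5.13 percent for *Mcl1*. The log2 difference was -0.19, with an interval of -0.91 to 0.54 (limma adjusted p = 0.725), and was 0.01 with the close pairs averaged, so it has no settled direction. Reads numbered 163 to 486 per retina.

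*Bax* (ENSMUSG00000003873, chr7:45461697-45466898) encodes the pore-forming effector that waits in the cytosol. It was 21.3, 21.6, 21.7, 20.7 and 21.5 FPKM in NL, the lowest coefficient of variation of the 8 genes (1.96 percent), and 24.9, 28.8, 30.4, 25.7 and 27.5 FPKM in LD. The lowest LD retina, LD-1, was above the highest NL retina. The mean rose from 21.4 ± 0.418 to 27.4 ± 2.23 FPKM (SD, n = 5 per group; exact permutation p = 0.00794). The log2 difference was 0.36 (SE 0.05, limma adjusted p = 7.23e-04), or 1.28-fold.

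*Bak1* (ENSMUSG00000057789, chr17:27019810-27029009) encodes the effector that resides on mitochondria. It was 4.97, 4.95, 4.95, 4.38 and 4.67 FPKM in NL and 5.98, 7.38, 7.09, 6.58 and 5.45 FPKM in LD. LD-8, the lowest LD retina, was still above all NL retinas. The rise on the log2 scale was 0.43 (SE 0.08, limma adjusted p = 0.00366), and 0.38 (limma adjusted p = 0.0391) with the close pairs averaged. *Bak1* overlaps *Ggnbp1* on the opposite strand, which stood at 1.06 FPKM in NL and 1.08 FPKM in LD, and whether the counting used strand is not given in the sources used here.

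The order of the levels in NL was *Mcl1*, *Bax*, *Bcl2l1*, *Bak1*, *Bcl2l11*, *Bbc3*, *Bcl2* and *Pmaip1*. The ranges of *Bcl2l11* and *Bbc3* overlapped in NL, as did those of *Bbc3* and *Bcl2*. In LD, *Bbc3* stood beside *Bak1*, with overlapping ranges of 5.10 to 7.45 and 5.45 to 7.38 FPKM, and above *Bcl2l11*. The 8 levels summed to 75.3 ± 1.94 FPKM in NL and 105.2 ± 6.27 FPKM in LD (SD, n = 5 per group). Anti-apoptotic transcripts were 57.9 ± 0.766 percent of this sum in NL and 58.8 ± 1.03 percent in LD, with overlapping ranges. This share holds for the 8 genes only. Other family genes are not in the sum, among them the anti-apoptotic *Bcl2l2*, with a mean of 37.1 FPKM in NL and 32.2 FPKM in LD. The BH3-only share was 6.58 to 7.95 percent in NL and 8.13 to 9.66 percent in LD, and the effectors' share was 34.2 to 35.8 percent in NL and 30.4 to 34.7 percent in LD.

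Ratios within a retina do not depend on how libraries are scaled, and are given as descriptions. *Bbc3* to *Mcl1* was 0.0859 ± 0.00457 in NL and 0.140 ± 0.0159 in LD (SD, n = 5 per group). *Bbc3* to *Bcl2l1* was 0.173 ± 0.0102 in NL and 0.360 ± 0.0303 in LD. Neither ratio overlapped between the groups, and *Bbc3* to *Bcl2* did not overlap either, at 0.869 to 3.04 in NL and 3.58 to 6.55 in LD. *Mcl1* to *Bax* was 1.25 to 1.37 in NL and 1.38 to 1.68 in LD, with LD-6 just above the highest NL retina. *Mcl1* to *Bak1* overlapped between the groups, at 5.62 to 6.15 in NL and 5.92 to 8.23 in LD. *Bcl2l1* to *Bak1*, *Bcl2* to *Bak1* and *Bcl2* to *Bax* overlapped as well. *Bcl2l1* to *Bax* was 0.637 to 0.670 in NL and 0.585 to 0.678 in LD, so this ratio overlapped between the groups. *Bak1* to *Bax* also overlapped, at 0.212 to 0.233 in NL and 0.198 to 0.256 in LD.

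**Figure D2:**
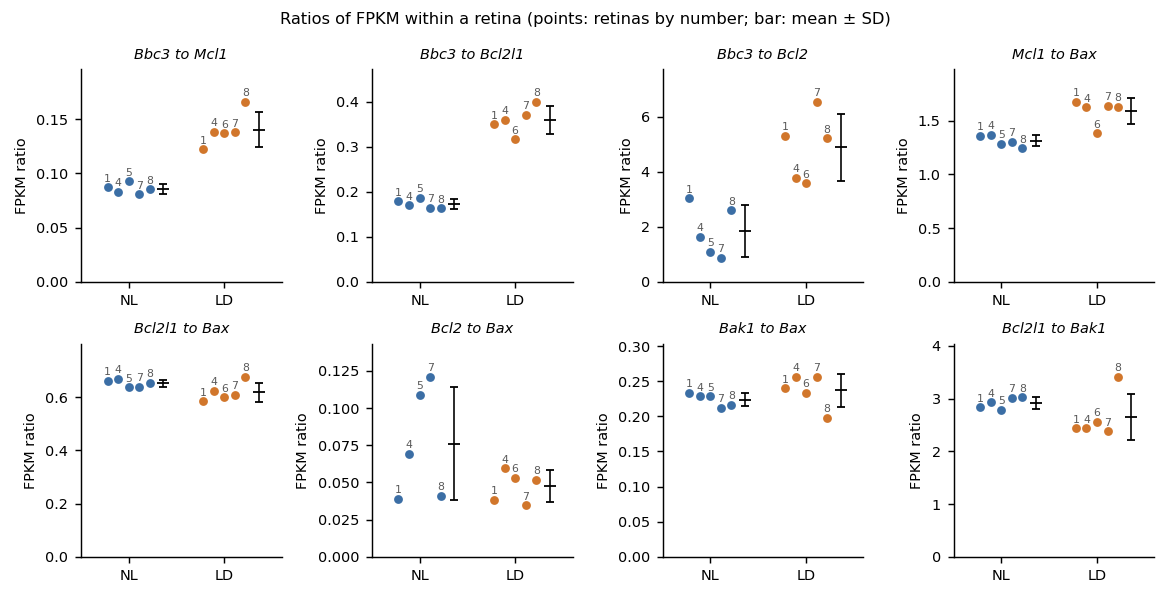
Ratios of FPKM of 2 genes within each retina (vertical axes, from 0), with the retina's number above its point and the mean ± SD beside each group. *Bbc3* is higher in LD relative to each of *Mcl1*, *Bcl2l1* and *Bcl2*, while *Bcl2l1*, *Bcl2* and *Bak1* relative to *Bax* overlap between the groups.

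Over the 10 retinas, the protein-coding genes whose level was most like that of *Bbc3*, among 15464 compared by Pearson's correlation of log2(FPKM + 0.1), were *Slc7a1* (r = 0.995), *Akt2* (r = 0.994) and *Eef1akmt4* (r = 0.991). *Mcl1* was 11th by the same measure, at r = 0.987, and *Xiap* stood at r = -0.971. These values are descriptions, and the points share the difference between the 2 groups. *Slc7a1*, a transporter of cationic amino acids, was 2.17 to 2.41 FPKM in NL and 4.93 to 6.53 FPKM in LD. *Akt2*, a survival kinase, was 11.2 to 11.8 FPKM in NL and 16.3 to 19.3 FPKM in LD. For *Bcl2*, the nearest genes were *Lrp2bp* (r = 0.964), *Ptprr* (r = 0.958) and *Armcx3* (r = 0.953), all of which overlapped between the groups.

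**Figure D3:**
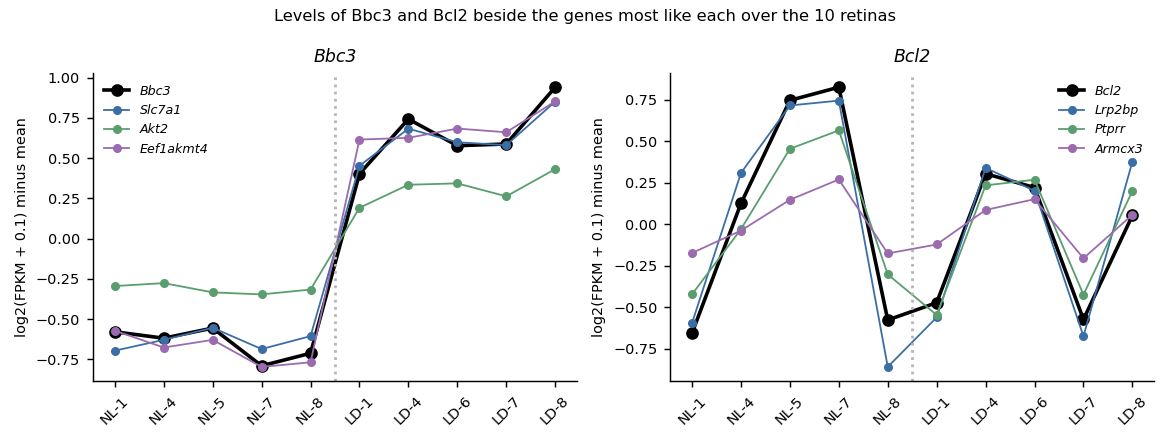
Level of *Bbc3* (left) and *Bcl2* (right) in each retina, as log2(FPKM + 0.1) minus its mean over the 10 retinas, beside the 3 genes most like each. The lines on the left step up between NL and LD, while those on the right are high in NL-5 and NL-7 and low in LD-1 and LD-7.

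The counts of the lists that follow stand against 14.5 percent higher and 13.4 percent lower of all genes tested. Of 5 genes of initiator caspases and the apoptosome 1 rose, a share near that background. *Casp8*, the initiator of the death receptor route, was 0.241 to 0.391 FPKM in NL and 1.5 to 2.49 FPKM in LD, a log2 difference of 2.36 (SE 0.19, limma adjusted p = 8.71e-06). *Apaf1* and *Casp9*, which form the apoptosome, had log2 differences of 0.03 and -0.03 and did not pass, nor did *Cycs* or *Casp2*.

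Of 7 genes of the inhibitors of apoptosis (IAPs) and their antagonists, 3 fell and 2 rose. *Xiap*, the inhibitor that binds caspases directly, was 53.4, 50.7, 53.9, 50.1 and 51.5 FPKM in NL and 22.8, 19.1, 19.3, 21.1 and 21.8 FPKM in LD. It was above every one of the 8 genes in NL and below *Mcl1* and *Bax* in LD. Its log2 difference was -1.32 (SE 0.05, limma adjusted p = 8.97e-08). *Birc6*, a giant ubiquitin ligase of the same group, fell by 0.33 on the log2 scale (limma adjusted p = 6.64e-04). *Birc3*, a target of NF-κB, and *Birc5*, which encodes survivin and serves in cell division, rose from low levels by 1.56 and 1.09 on the log2 scale (limma adjusted p = 1.15e-04 and 0.00303). Both met the filter on low values only with LD retinas counted, so their rises are no separate support. *Birc5* had 4 to 12 reads in each NL retina. It did not pass with the label number as a replicate block (0.98, limma adjusted p = 0.0513). *Birc2*, at -0.16 (limma adjusted p = 0.0401), did not pass in 13 of 23 alternatives, among them the close pairs averaged (-0.16, limma adjusted p = 0.159), FPKM without the authors' factor per retina (-0.03, limma adjusted p = 0.674) and leaving out NL-1, NL-5, NL-7, NL-8, LD-4 or LD-6 in turn, at -0.17 to -0.14 (limma adjusted p = 0.0689 to 0.0913). The antagonists *Diablo* and *Htra2* did not pass. Rod markers fell in the same LD retinas, and their part in the fall of *Xiap* was not tested.

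**Figure D4:**
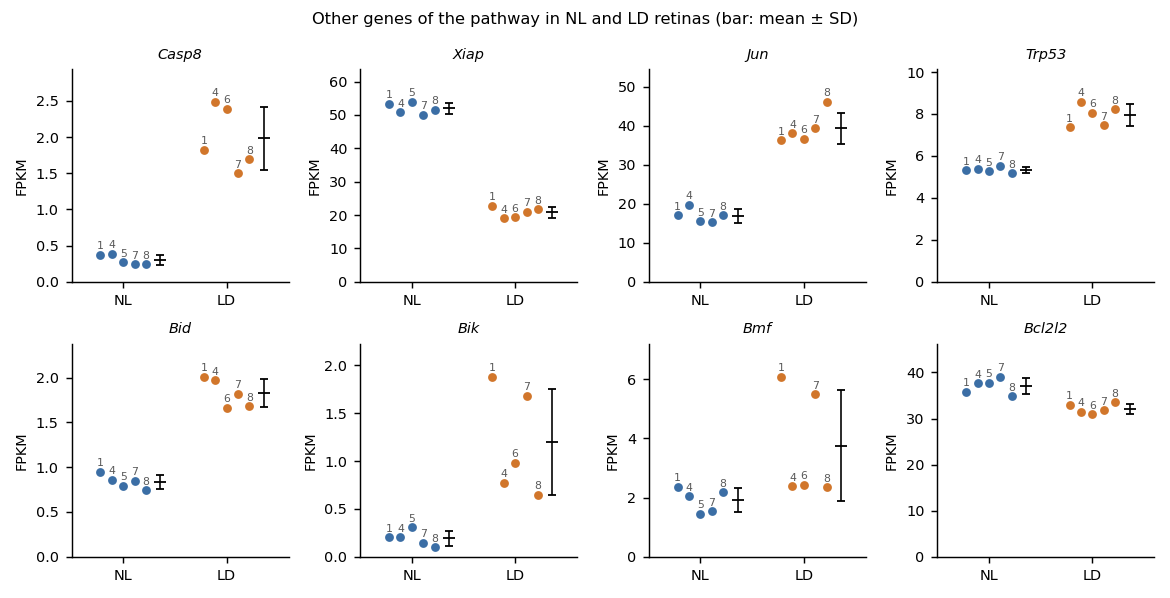
Level in FPKM (vertical axes, from 0) of *Casp8*, *Xiap*, *Jun*, *Trp53*, the BH3-only genes *Bid*, *Bik* and *Bmf*, and *Bcl2l2* in each NL and LD retina, with the retina's number above its point and the mean ± SD beside each group. *Casp8*, *Jun*, *Trp53*, *Bid* and *Bik* are higher and *Xiap* and *Bcl2l2* lower in every LD retina than in any NL retina, and *Bmf* is high in LD-1 and LD-7.

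Another 18 genes of the BCL2 family were listed, of which 17 were tested. Of these 6 rose, 1 fell and 10 did not pass, with a median log2 difference of 0.19. Of the 6 rises, *Bcl2a1a*, *Bcl2a1b*, *Bcl2a1d* and *Bik* met the filter of 0.1 FPKM in 5 retinas only with LD retinas counted. These genes entered the test only because their LD levels were high enough, so their rises are no separate support. *Bcl2l14* was at 0 reads in every retina and was not tested. The rises included the anti-apoptotic *Bcl2a1a*, *Bcl2a1b* and *Bcl2a1d*, immune-cell genes of nearly identical sequence among which reads may be split, so the call of each is uncertain. Reads of *Bcl2a1d* numbered 1 to 3 in each NL and 28 to 74 in each LD retina. The ratio of its summed reads per library was 28.4, with an exact counting interval of 14.7 to 63.0. *Bcl2a1a* had 3 NL reads and 58 LD reads in all, and *Bcl2a1b* had 1 and 27.

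Microglial markers were higher in LD for 3 of 5 genes. The remaining *P2ry12* and *Tmem119* did not pass, at -0.74 and 0.22 on the log2 scale (limma adjusted p = 0.122 and 0.528). The summed levels of the 5 were 8.12 to 10.7 FPKM in NL and 8.41 to 20.4 FPKM in LD, LD-1 and LD-7 being highest. The monocyte markers summed to 0.859 to 2.64 FPKM in NL and 5.34 to 11.9 FPKM in LD, nearly all of it from *Lyz2*, while neutrophil markers were at most 0.668 FPKM and T cell markers at most 0.310 FPKM in every retina. The part of immune cells in the *Bcl2a1* and *Casp8* results was not tested. *Bcl2a1d* was highest in LD-1, at 3.52 FPKM, and then in LD-7, at 2.85 FPKM. *Bcl2a1a* was highest in LD-7, at 0.911 FPKM, and then in LD-1, at 0.751 FPKM. *Bcl2a1b*, with 3 to 8 reads in each LD retina, was highest in LD-8, at 0.440 FPKM. *Casp8* was highest in LD-4 and LD-6, at 2.49 and 2.39 FPKM, and lowest in LD-7.

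Among the further BH3-only genes, *Bik*, whose protein sits at the endoplasmic reticulum, was 0.0975 to 0.310 FPKM in NL and 0.650 to 1.88 FPKM in LD, again highest in LD-1 and LD-7. Its log2 difference was 2.08 (SE 0.31, limma adjusted p = 6.65e-04). Reads of *Bik* numbered 4 to 10 in each NL and 23 to 73 in each LD retina. It overlaps *Gm46495*, a processed pseudogene on the opposite strand at 0.0175 FPKM in NL and 0.183 FPKM in LD. The part of those reads was not tested. *Bid*, *Bad*, *Bcl2l2* and *Bmf* were singled out after their values were seen. *Bid*, which links caspase-8 to mitochondria, was 0.743 to 0.948 FPKM in NL and 1.66 to 2.01 FPKM in LD, a log2 difference of 1.04 (SE 0.11, limma adjusted p = 6.60e-05). It overlaps *Bcl2l13* on the opposite strand, whose level was 7.90 FPKM in NL and 7.70 FPKM in LD. *Bmf* was 6.08 and 5.5 FPKM in LD-1 and LD-7 and 2.34 to 2.43 FPKM in the other LD retinas, against 1.45 to 2.36 FPKM in NL. It did not pass (log2 difference 0.82, limma adjusted p = 0.0631), but did without LD-8, at 0.95 (limma adjusted p = 0.0461).

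*Bad*, a BH3-only gene regulated by survival kinases, had a log2 difference of 0.27 (limma adjusted p = 0.0261), and did not pass without NL-5, NL-7, NL-8, LD-4 or LD-8 in turn, at 0.26 to 0.27 (limma adjusted p = 0.0534 to 0.0595). Nor did it pass with the close pairs averaged (0.28, limma adjusted p = 0.0575) or over the 8 retinas with shared numbers (0.20, limma adjusted p = 0.0948). It overlaps *Gpr137* on the opposite strand, whose level was 13.1 FPKM in NL and 15.8 FPKM in LD, and the part of its reads in the difference was not tested. *Bcl2l2*, which encodes the anti-apoptotic BCL-w, was 34.8 to 39.1 FPKM in NL and 30.9 to 33.5 FPKM in LD, so it was more abundant than *Mcl1* in NL and less abundant in LD. Its log2 difference was -0.20 (SE 0.04, limma adjusted p = 0.00481). It did not pass without the authors' factor per retina (-0.07, limma adjusted p = 0.224), a choice that moved the median of all genes to 0.11, with TPM (-0.10, limma adjusted p = 0.0902) or with the close pairs averaged (-0.18, limma adjusted p = 0.0626).

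**Figure D5:**
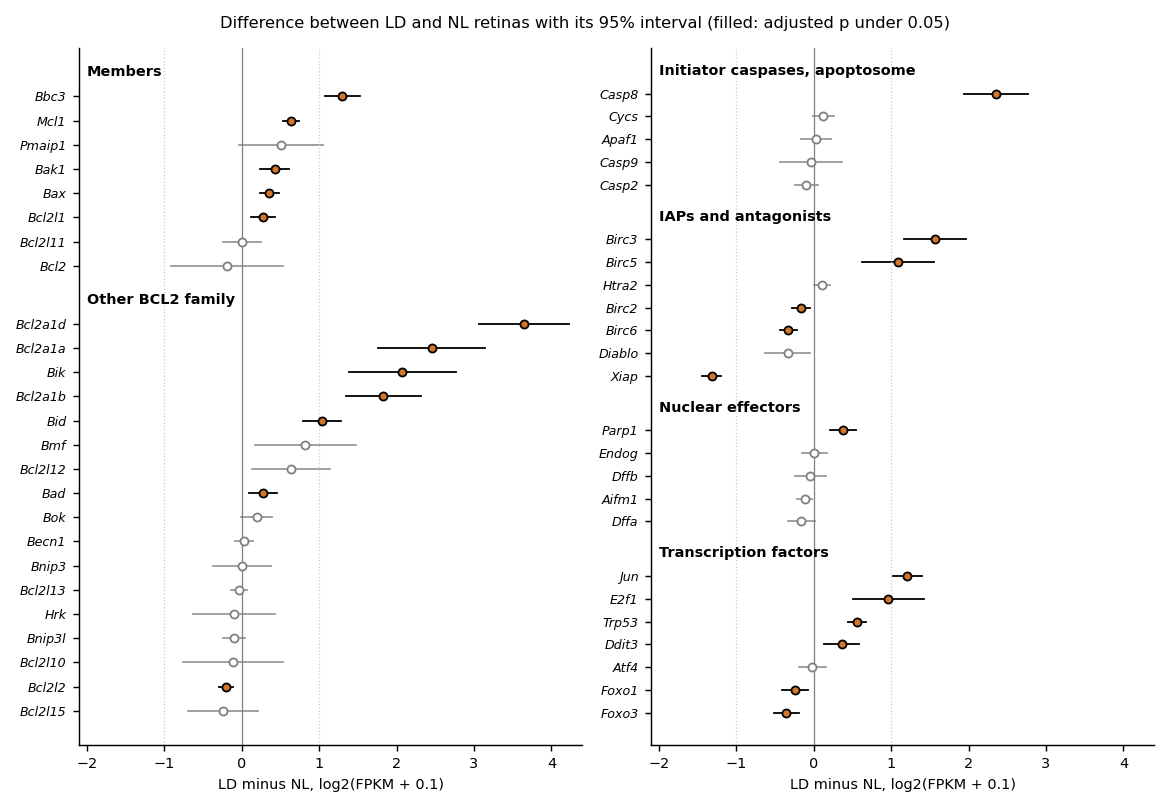
Difference LD minus NL on the log2(FPKM + 0.1) scale (horizontal axis) with its 95% interval for the 8 members and the other listed genes, by group, with filled points for a limma adjusted p under 0.05 and dotted lines at a 2-fold change. *Bbc3* is the highest of the 8 members and *Xiap* is the lowest of all genes shown.

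Of 8 transcription factors known to act on BH3-only genes, 7 were tested, of which 4 rose and 2 fell. *Jun*, a subunit of AP-1, rose from 17.0 ± 1.81 to 39.3 ± 4.01 FPKM (SD, n = 5 per group; log2 difference 1.21, limma adjusted p = 3.50e-06). *Trp53*, which encodes p53, rose from 5.34 ± 0.137 to 7.94 ± 0.515 FPKM (log2 difference 0.56, limma adjusted p = 3.12e-05). *E2f1* rose by 0.96 on the log2 scale (limma adjusted p = 0.00552), and lost its call in 1 of 22 alternatives. *Ddit3*, which encodes CHOP of the endoplasmic reticulum stress response, rose by 0.36 (limma adjusted p = 0.0210). It did not pass without NL-7 (0.32, limma adjusted p = 0.0528), with the close pairs averaged (0.40, limma adjusted p = 0.0652) or over the 8 retinas with shared numbers (0.36, limma adjusted p = 0.0754). It overlaps *Mars* on the opposite strand, which stood at 23.4 FPKM in NL and 35.2 FPKM in LD, and the part of those reads was not tested. *Atf4* had a difference of -0.02 and did not pass. *Foxo3* and *Foxo1*, which act on *Bcl2l11* and *Bbc3*, fell by 0.35 (limma adjusted p = 0.00431) and by 0.24 (limma adjusted p = 0.0365). *Foxo1* no longer passed without NL-1, NL-5, NL-7, LD-1, LD-6 or LD-8 in turn, at -0.24 to -0.21 (limma adjusted p = 0.0608 to 0.0909), nor with the close pairs averaged (-0.23, limma adjusted p = 0.134). Of 5 nuclear effectors of cell death 1 rose, *Parp1*, a sensor of DNA breaks, by 0.38 on the log2 scale (limma adjusted p = 0.00427).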

How the data were processed

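Neural retina samples of BALB/c mice, 5 NL and 5 LD, were compared by RNA-seq, with groups from the labels. RNA was taken with TRIzol. The methods name paired reads on a HiSeq, the labels a TruSeq kit and the series a NovaSeq. The submitters' processing notes name Bowtie2 2.0.6, TopHat2 2.0.9 and mm8, with no roles. The positions of the deposited table are on GRCm38, and 54495 of its 54532 identifiers are in GENCODE M21. The authors deposited 1 table of FPKM, normalized by the company that sequenced the libraries. Reads were recovered from the steps of the FPKM, which were whole (within 0.01) for 100% of values. The library sizes behind the FPKM carried a factor of 0.951 to 0.968 in NL and 1.041 to 1.069 in LD. The 95% intervals of the differences come from the spread between retinas, and the interval of a ratio of reads covers counting error only.

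The 24508 genes that reached 0.1 FPKM in 5 or more retinas were tested in limma 3.58.1 under R 4.3.3 on log2(FPKM + 0.1) with an intensity trend and Benjamini-Hochberg adjustment. The pseudocount of 0.1 understates the change of low genes. Single genes were compared by exact permutation over retinas (scipy 1.17.1). That test takes each retina as a separate unit and was not repeated with the close pairs averaged. On simulated data for 23525 genes, 199 of 200 genes changed 4-fold were called with the right sign and 3 unchanged genes were called. The changed genes were drawn from those with many reads, with the same spread for every gene and no close pairs of retinas. The simulation therefore does not cover smaller changes or genes of few reads.

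Named were the 8 members, from each list up to 4 genes with the largest difference among those with an adjusted p under 0.05, family genes that failed the filter, and the 3 genes most like the members with the highest and lowest difference. Another 7 genes (*Bid*, *Bad*, *Bcl2l2*, *Bmf*, *Birc2*, *Foxo1*, *Foxo3*) were singled out after their values were seen. The members and lists were chosen with earlier results of these data known. Of 23 alternatives, 22 were planned and 1, the presence of *Xist* as a covariate, was added after seeing the data. They changed the pseudocount, filter, scaling, trend, test, block and retinas included. The p53 decamer was added to the motifs after the files were read. Promoters are from RefSeq. Protein sequences were not used here, and some genes are not reported here.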

Additional observations from a re-analysis of the deposited data

Results flagged for a closer look

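In 58 groups of 5 retinas, those of the genes named, the highest or lowest retina was tested for its gap to the others relative to the range (Dixon). Chance flags about 1 in 20, or 2.9 here, and 2 were found. *Ddit3* stood at 46.2 FPKM in LD-8 and 32.2 to 34.3 FPKM in the other LD retinas. *Bcl2a1b* stood at 0.0474 FPKM in NL-8, which is 1 read, and at 0 in the other NL retinas. A group with reads in 1 retina only is flagged whatever the value, so the chance rate does not apply to it.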

How the results depend on the processing

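The 5 rises among the 8 genes held in 21 of 23 alternatives at an adjusted p under 0.05; *Bcl2l1* did not pass in 2 of them. *Bbc3* was called in all, with a log2 difference of 1.06 to 1.43. Deviations of same-numbered retinas correlated at -0.09 to 0.07 over 4 pairs, and 1 of 4 was closest to its own number. So no pairing by number was seen, but 4 pairs cannot exclude it. With the number as a replicate block, over 8 retinas, 808 genes were called over 2-fold and 3805 at an adjusted p under 0.05, against 1595 and 6818, and *Bcl2l1* was 0.25 (limma adjusted p = 0.0722). The same 8 retinas without the block gave 1182 and 4758 genes and 0.25 (0.0694) for *Bcl2l1*. A pseudocount of 1 called 816 genes, and limma-voom on the recovered reads 1698. With the close pairs averaged, 4353 genes had an adjusted p under 0.05 and *Bcl2* was 0.012. *Bcl2l11* was -0.045 under quantile normalization. The causes were not tested.

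Leaving out 1 retina at a time, the 1595 genes called became 1379 to 1603 and the 6818 became 5777 to 6813. The range was -0.048 to 0.061 for *Bcl2l11*, -0.37 to -0.00330 for *Bcl2*, and 0.24 to 0.33 for *Bcl2l1*. Among 21 further genes, 432 of 477 values kept their direction and side of the threshold, 42 lost the call, 3 gained it and 0 reversed. Relative counting error is largest for genes of few reads, such as *Pmaip1*, with 16 to 42 per retina.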
